A study of Mus musculus with 10 samples.

Results

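The genes of the major histocompatibility complex (MHC, called H2 in the mouse) and of antigen presentation were followed in wound-edge skin of diabetic mice. Members were the genes whose platform symbol began with H2- or was Cd74, Ciita, Nlrc5, B2m, Tap1, Tap2, Tapbp, Psmb8, Psmb9, Psmb10, Cd1d1 or Cd86. An array feature of their own was found for 47 of them, among 30748 genes with such a feature. Of these 47, 33 had a mean log2 signal above 4.17, the median of the feature means, and were among the 17637 genes tested. A further 13 symbols, Cd74 and Nlrc5 among them, stood only on features that also list another symbol and were given no value.

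The samples were 10 arrays of RNA from the wound edge of male db/db mice, 1 array per animal. The genotype is db/db [BKS(D)-Leprdb/JOrlRj)], a leptin receptor mutation that makes the animals obese and hyperglycaemic, and the labels give the strain background as C57BL/6. Both groups carry this mutation, so no wound of a non-diabetic animal was part of the comparison. In the miR-132 group (n = 5) miR-132 mimics, and in the control group (n = 5) control mimics, were injected into the skin at 4 points around each wound at the time of wounding, 0.5 nmol per wound. The animals were 11 weeks old before a week of handling, each had 2 wounds of 4 mm, and tissue was taken on day 6. The biopsies hold the mixed cells of the wound edge.

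Class I molecules sit on nearly all nucleated cells and show peptides from the cytosol to CD8 T cells. The peptides are cut by the proteasome, whose subunits Psmb8, Psmb9 and Psmb10 are the immune forms, carried into the endoplasmic reticulum by Tap1 and Tap2, and loaded with the help of tapasin, the product of Tapbp. B2m is the light chain of every class I molecule. Class II molecules are made mainly by dendritic cells, macrophages, Langerhans cells and B cells, and show peptides from endosomes to CD4 T cells. The chains encoded by H2-Aa with H2-Ab1, and by H2-Ea with H2-Eb1, form the surface molecules, and H2-DM exchanges their peptides. Ciita is the transactivator that switches on class II genes, and it acts through proteins bound to conserved X and Y boxes in their promoters.

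The agent supplied was a mimic of miR-132, and the labels do not name the arm. Both mature arms from RefSeq (GRCm38.p6) are shown to identify it, with the seed, bases 2 to 8, in capitals.
mmu-miR-132-3p: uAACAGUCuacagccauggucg
mmu-miR-132-5p: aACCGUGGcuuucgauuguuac

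The promoters of class II genes and of some class I genes share the boxes through which the transactivators work, so stretches from 130 to 21 bases before the RefSeq start are shown for 4 class II and 2 class I members. Capitals mark matches, on either strand, to an X box core ACNGATG, a CRE-like element TGACGNCA, a Y box CTGATTGG and its shorter form ATTGG, which lies inside the Y box. The stretches come from GRCm38.p6, H2-Aa from the minus strand of chr17:34287844-34287953, and from the plus strand H2-Eb1 at chr17:34305737-34305846, H2-DMb1 at chr17:34153061-34153170, H2-DMb2 at chr17:34145119-34145228, H2-D1 at chr17:35262964-35263073 and H2-Q4 at chr17:35379487-35379596.
H2-Aa: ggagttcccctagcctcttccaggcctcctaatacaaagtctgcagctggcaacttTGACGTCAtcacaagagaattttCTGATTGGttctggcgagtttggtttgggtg
H2-Eb1: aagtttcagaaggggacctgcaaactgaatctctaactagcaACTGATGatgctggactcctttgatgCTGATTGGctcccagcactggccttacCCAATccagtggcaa
H2-DMb1: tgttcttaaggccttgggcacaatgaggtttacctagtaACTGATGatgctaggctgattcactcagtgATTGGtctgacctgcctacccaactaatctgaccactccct
H2-DMb2: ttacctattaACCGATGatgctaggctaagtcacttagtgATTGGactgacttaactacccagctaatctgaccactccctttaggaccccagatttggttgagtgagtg
H2-D1: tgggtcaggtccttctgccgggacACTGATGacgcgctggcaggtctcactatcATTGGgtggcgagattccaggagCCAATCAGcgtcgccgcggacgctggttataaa
H2-Q4: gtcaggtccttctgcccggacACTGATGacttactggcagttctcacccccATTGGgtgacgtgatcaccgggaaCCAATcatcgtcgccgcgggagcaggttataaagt

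In these stretches the X box core was followed by ATTGG at a distance of 22 bases in H2-Eb1 and 23 bases in H2-DMb1, H2-DMb2, H2-D1 and H2-Q4. In H2-Aa the CRE-like element was followed by ATTGG after 18 bases. Of the members above the level filter, 21 of 33 had a promoter of 300 bases in the RefSeq table. The X box core was found in 4 of 5 class II promoters and 5 of 9 class I heavy chain promoters, against 9.85% of 32851 mouse promoters of the same length. These counts take the core alone, wherever it stands. The match in H2-Aa lay on the opposite strand at positions -232 to -226, outside the stretch shown, and that in H2-M5 lay on the opposite strand of a window with no ATTGG. The short Y box was found in 4 of 5 class II promoters and 7 of 9 class I promoters, against 37.41%. Only the first listed window of a gene was counted. Another window of H2-DMa, not counted, holds ATTGG at positions -198 to -194. The kappa B motif GGGANTCCC was found in 2 of 9 class I promoters, those of H2-K1 and H2-D1, in 0 of 5 class II promoters and in 0.77% of all promoters. A match describes letters in the window and does not show binding.

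No MHC or antigen presentation gene passed the test between miR-132 and control wounds. With limma across all genes and Benjamini-Hochberg adjustment, 0 of 33 members were at an adjusted p under 0.05, and 0% of all genes tested were. At an unadjusted p under 0.05 there was 1 member of 33, against 8.08% of all genes tested (1425 of 17637). The groups overlapped for all 33 members, whereas 0.93% of the genes tested had groups that did not overlap. The mean was lower with miR-132 for 24 of the 33 members, against 53.6% of the genes tested. Direction varied with signal level over all genes. Among genes above the 75th percentile, 12 of 17 members were lower, against 63.6% of all such genes. After median centring 17 of the 33 members were lower, against 42.5% of the genes tested. After quantile normalization 21 were, against 45.2%. The median log2 difference, miR-132 minus control, was -0.048 over the members and -0.016 over all genes tested. The count of lower members also rested on which arrays were in the fit. It was 29 of 33 without miR-132 replicate 1, 16 without control replicate 1 and 17 without miR-132 replicate 5.

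The class II genes averaged lower in miR-132 wounds, 2 control animals had the highest values, and no class II gene passed the test. All 7 class II members above the filter had a lower mean with miR-132, with log2 differences from -0.30 to -0.04 and adjusted p between 0.809 and 0.967 (limma). Their median difference was -0.192. The direction rested on few arrays: without control replicate 1 alone 4 of the 7 differences turned positive, and 6 of the 7 did with the spike-in controls of hybridisation in the fit. On each of the 7, control replicate 1 gave the highest value of the 10 arrays. That held for 8 of the 22 class I pathway genes and 11.6% of all genes tested. Control replicates 1 and 4 both lay above the other 8 arrays for 5 of the 7 class II members and for 3 of the 22 class I pathway genes (Tap1, Tap2 and H2-Q4), against 4.77% of all genes tested. This pair of arrays was picked after the class II values were seen, and the 7 genes come from the same animals. The count describes those values and is not a separate result. In this bulk tissue, more cells of a type and more RNA per cell cannot be told apart.

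H2-Aa encodes the alpha chain of the I-A molecule. Its log2 signal was 5.57, 5.52, 5.17, 5.29 and 5.44 on miR-132 replicates 1 to 5, against 6.20, 5.11, 5.38, 6.05 and 5.27 on control replicates 1 to 5. The highest arrays were control replicates 1 and 4, and the other 3 control arrays lay inside or just below the miR-132 range. The log2 difference was -0.20 ± 0.21 (SE, n = 5 per group), with a limma adjusted p of 0.81. It became -0.055 without control replicate 1 and -0.092 without control replicate 4. H2-Ab1 encodes the beta chain that pairs with it. Its values were 8.15, 8.19, 7.81, 8.04 and 8.05 with miR-132, against 9.09, 7.66, 7.96, 8.44 and 8.05 in controls. The same 2 control arrays were the highest, control replicate 2 was the lowest, and the difference was -0.19 ± 0.24 (SE), adjusted p = 0.85 by limma. Without control replicate 1 alone it turned to 0.021.

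H2-Eb1 encodes the beta chain of the I-E molecule. Its values were 7.63, 7.87, 6.81, 7.67 and 7.43 with miR-132, against 8.67, 7.32, 7.23, 8.19 and 7.42 in controls. Again control replicates 1 and 4 were highest, and miR-132 replicate 3 was the lowest array, so the miR-132 group was spread as well. The difference was -0.28 ± 0.31 (SE), adjusted p = 0.825 by limma, and became -0.058 without control replicate 1 and -0.12 without miR-132 replicate 3. The feature listed as H2-Ea-ps reads the gene of the matching alpha chain. The gene carries a promoter deletion in C57BL/6, which is why the reference calls it a pseudogene, and is intact in strains of other haplotypes. The labels name both BKS and C57BL/6 and do not give the H2 haplotype of the animals.

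H2-Ea-ps measured 11.19, 10.68, 9.70, 10.63 and 10.64 with miR-132, against 12.20, 9.83, 10.26, 11.76 and 10.28 in controls. Every array was far above the level filter of 4.17, and the range over the 10 animals, 2.50 log2 units, was the widest among the 33 members. The difference was -0.30 ± 0.48 (SE), adjusted p = 0.893 by limma, with a 95% interval from -1.38 to 0.78. It turned to 0.036 without control replicate 1.

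The chains of H2-DM varied less. H2-DMa, the alpha chain, had values of 5.20, 5.61, 5.19, 5.24 and 5.45 with miR-132, against 5.93, 5.29, 4.96, 5.51 and 5.24 in controls. Control replicate 1 was highest, but miR-132 replicate 2 exceeded control replicate 4, and the difference was -0.05 ± 0.17 (SE). Without control replicate 1 it turned to 0.088. The beta chain is encoded by H2-DMb1 and H2-DMb2, neighbouring and similar genes whose probes may each read some of the other's RNA. H2-DMb1 had a difference of -0.04 ± 0.15 (SE) and H2-DMb2 one of -0.13 ± 0.13 (SE), which became -0.021 without control replicate 1. On miR-132 replicate 1 H2-DMb1 stood at 5.56, beside 5.59 on control replicate 1, whereas H2-DMb2 stood at 5.65 there, beside 6.21. The remaining class II members, H2-Eb2, H2-Oa and H2-Ob, lay below the level filter, with mean signals of 3.60, 3.43 and 3.78.

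**Figure D1:**
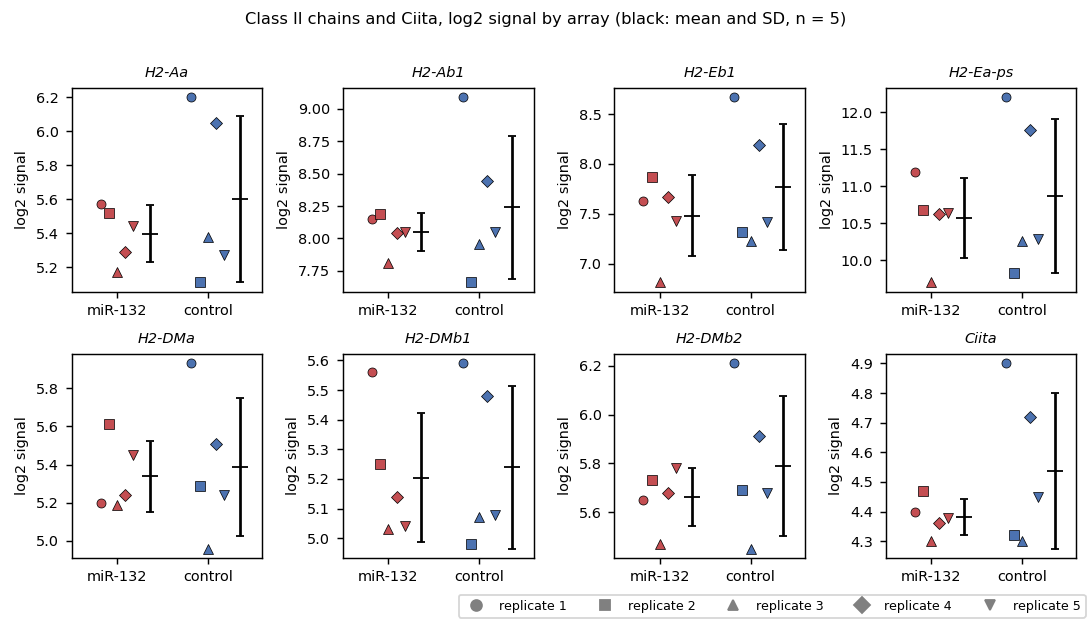
Log2 signal of the 7 class II members above the level filter and of Ciita, 1 point per animal, with miR-132 arrays left of control arrays, marker shape giving the replicate number and black bars the mean and SD (n = 5). Control replicate 1 is the highest point in every panel, and the control bars are longer than the miR-132 bars.

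The spread between animals was larger in control wounds than in miR-132 wounds for 7 of 7 class II members. The median SD of these members was 0.185 with miR-132 and 0.49 in controls. Over all genes tested it ran the other way, with 0.232 with miR-132 and 0.172 in controls, and the control SD was the larger one for 30.9% of them. Among the 15 class I heavy chains above the filter the control SD was larger for 3. The control SD of the class II members includes the high control replicates 1 and 4. The mean over the 7 members was 7.70 and 7.33 on those arrays. It was 6.55, 6.62 and 6.72 on control replicates 2, 3 and 5, beside 6.45 to 6.99 with miR-132. The 7 genes share these arrays and are not separate observations of spread. No test of these spreads was made.

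Ciita, the class II transactivator, was measured just above the level filter. Its values were 4.40, 4.47, 4.30, 4.36 and 4.38 with miR-132, against 4.90, 4.32, 4.30, 4.72 and 4.45 in controls. Here too control replicates 1 and 4 were the highest arrays, and the other 8 lay between 4.30 and 4.47. The difference was -0.16 ± 0.11 (SE), adjusted p = 0.74 by limma. It became -0.066 without control replicate 1 and 0.025 with control replicates 1 and 4 both left out.

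Over the 10 animals the level of Ciita followed that of the class II genes. In all, 8 relations were computed, of Ciita with 4 class II and 4 class I pathway genes, each with a two-sided permutation test of 100000 resamples adjusted over the 8. For H2-Ab1 Pearson's r was 0.95 (permutation p = 6e-05, adjusted 0.00048) and Spearman's rho 0.94 (permutation p = 0.00013, adjusted 0.00104). For H2-Aa r was 0.94 (adjusted permutation p = 0.00184) and rho 0.77 (adjusted 0.0255). For H2-Eb1 r was 0.92 (adjusted permutation p = 0.00076) and rho 0.89 (adjusted 0.00496). For H2-DMa r was 0.84 (adjusted permutation p = 0.0057) and rho 0.81 (adjusted 0.0159). After subtraction of each group's mean, r lay between 0.89 and 0.96 for these 4 genes, and after quantile normalization between 0.66 and 0.89.

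For the class I pathway genes r was lower. Tap1 had r = 0.77 (adjusted permutation p = 0.00702) and rho = 0.75 (adjusted 0.0255). H2-K1 had r = 0.62 (adjusted permutation p = 0.0897) and rho = 0.60 (adjusted 0.0728). H2-D1 had r = 0.52 (adjusted permutation p = 0.145) and rho = 0.70 (adjusted 0.0375), and Psmb9 had r = 0.29 (adjusted permutation p = 0.398) and rho = 0.61 (adjusted 0.0728). After quantile normalization r was 0.63 for Tap1, 0.52 for H2-K1, 0.38 for Psmb9 and 0.10 for H2-D1. Whether r differed between class II and class I genes was not tested. The relations rested in large part on control replicates 1 and 4, the arrays farthest from the median of Ciita. Without them r over 8 animals was 0.76 for H2-Ab1, 0.75 for H2-Eb1, 0.66 for H2-DMa and 0.56 for H2-Aa, with exact permutation p of 0.0273, 0.0295, 0.068 and 0.156, none of which passed adjustment (lowest adjusted 0.118). Over the same 8 it was 0.56 for Tap1, 0.63 for Psmb9, 0.36 for H2-D1 and 0.14 for H2-K1. The exact permutation p was 0.152, 0.0879, 0.402 and 0.762 in that order, and the highest after adjustment was 0.762. Adjusted exact permutation p was 0.176 for both Psmb9 and H2-DMa, and 0.208 for both Tap1 and H2-Aa.

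**Figure D2:**
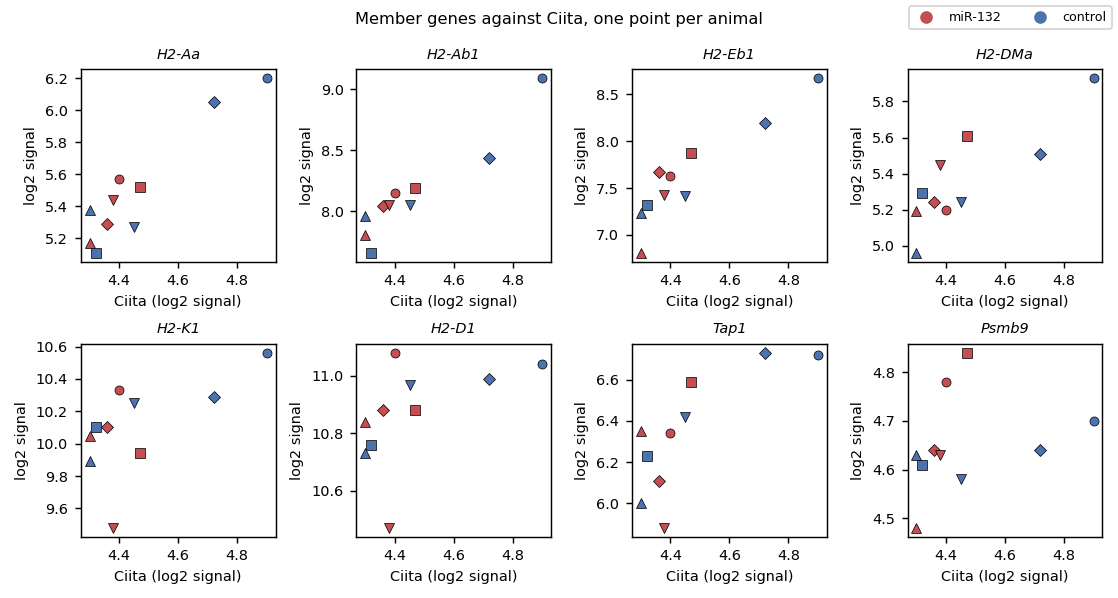
Log2 signal of 4 class II and 4 class I pathway genes (vertical) against that of Ciita (horizontal), 1 point per animal, with miR-132 in red, control in blue and marker shape giving the replicate number as in the plot of class II members. Control replicates 1 and 4 lie at the right of each panel, at 4.90 and 4.72, apart from the other 8 animals.

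The classical class I heavy chains averaged slightly lower with miR-132, within the spread between animals. H2-K1 measured 10.33, 9.94, 10.05, 10.10 and 9.48 with miR-132, against 10.56, 10.10, 9.89, 10.29 and 10.25 in controls. On 4 of 5 miR-132 arrays it was below the mean of the controls, and replicate 5 was the lowest of all 10. The difference was -0.24 ± 0.19 (SE), adjusted p = 0.755 by limma, and became -0.11 without miR-132 replicate 5. H2-D1 measured 11.08, 10.88, 10.84, 10.88 and 10.47 with miR-132, against 11.04, 10.76, 10.73, 10.99 and 10.97 in controls. Its miR-132 replicate 1 was the highest array and replicate 5 the lowest, and the difference was -0.07 ± 0.14 (SE), adjusted p = 0.923 by limma. Without miR-132 replicate 5 it turned to 0.022. Heavy chain genes resemble each other closely, so a probe may read RNA of more than 1 of them, and which allele the probes fit best in these animals was not tested.

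The other heavy chains above the filter are non-classical genes or relatives, some with narrower roles. Of these 13, 8 had a lower and 5 a higher mean with miR-132, and log2 differences ran from -0.22 to 0.20. Among the 13, RefSeq lists H2-Bl, H2-K2 and H2-T10 as transcribed pseudogenes and H2-Q3 as a pseudogene. H2-Q4 measured 7.58, 7.26, 7.20, 7.39 and 6.78 with miR-132, against 7.70, 7.28, 7.30, 7.62 and 7.42 in controls. Its lowest array was again miR-132 replicate 5, and the difference was -0.22 ± 0.15 (SE), adjusted p = 0.72 by limma, or -0.11 without that array. H2-K2 had a difference of -0.14 ± 0.17 (SE), and H2-M3, which presents formylated bacterial peptides, one of -0.09 ± 0.15 (SE). H2-Q10, known as a secreted form made in liver, had one of -0.02 ± 0.08 (SE).

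H2-T10, a ligand of some gamma delta T cells, measured 7.72, 7.24, 6.90, 7.02 and 6.73 with miR-132, against 7.50, 7.01, 6.84, 6.94 and 7.05 in controls. The 2 replicates numbered 1 were the highest arrays of their groups, and the difference was 0.05 ± 0.19 (SE). H2-T24 had a difference of 0.07 ± 0.13 (SE) and H2-M2 one of 0.10 ± 0.22 (SE). Without miR-132 replicate 1 the 3 differences turned negative, to -0.096 for H2-T10, -0.011 for H2-T24 and -0.074 for H2-M2. H2-Bl, H2-Q1, H2-Q2, H2-Q3 and H2-M9 had differences between -0.05 and 0.02.

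H2-M5 was the 1 member with an unadjusted p under 0.05. It measured 4.29, 4.37, 4.30, 4.16 and 4.35 with miR-132, against 4.12, 4.23, 4.07, 4.02 and 4.05 in controls. The values lay on both sides of the level filter of 4.17, and miR-132 replicate 4 fell below control replicate 2. The difference was 0.20 ± 0.06 (SE), with an unadjusted p of 0.00896 and an adjusted p of 0.596 by limma, so it did not pass. The 9 other class I heavy chains with a feature of their own, all named H2-M, lay below the filter. Over all 14 members below it, means ran from 3.43 to 3.99 and 13 were higher with miR-132, as were 80.5% of all genes below the filter. The highest of these differences, 0.252, was that of H2-Pa.

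The light chain could not be compared. B2m read 19.89 on all 10 arrays, next to the highest value in the table, 19.93, so its signal carried no information on a difference. Among the genes that load class I molecules, the 3 had lower means with miR-132 and none passed the test. Tap1 measured 6.34, 6.59, 6.35, 6.11 and 5.88 with miR-132, against 6.72, 6.23, 6.00, 6.73 and 6.42 in controls. Control replicates 4 and 1 were highest and miR-132 replicate 5 lowest, and the difference was -0.17 ± 0.17 (SE), adjusted p = 0.81 by limma. It became -0.073 without miR-132 replicate 5 and about as small without either of those control arrays, -0.089 without replicate 4 and -0.091 without replicate 1. Tap2 had a difference of -0.08 ± 0.07 (SE) and Tapbp one of -0.10 ± 0.13 (SE), with adjusted p of 0.777 and 0.853 by limma.

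The immune proteasome subunits did not share a direction. Psmb10 measured 6.31, 5.93, 5.56, 6.41 and 5.93 with miR-132, against 6.07, 5.97, 5.77, 5.69 and 5.79 in controls. With miR-132, 4 of 5 animals exceeded the mean of the controls while replicate 3 was the lowest of all, with a difference of 0.17 ± 0.16 (SE), adjusted p = 0.79 by limma, or 0.075 without miR-132 replicate 4. Psmb9 had a difference of 0.04 ± 0.07 (SE) and Psmb8 one of -0.01 ± 0.17 (SE). Psmb8 ranged from 5.22 to 5.77 with miR-132, against 5.05 to 5.92 in controls, and was highest on control replicate 1 and miR-132 replicate 1.

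**Figure D3:**
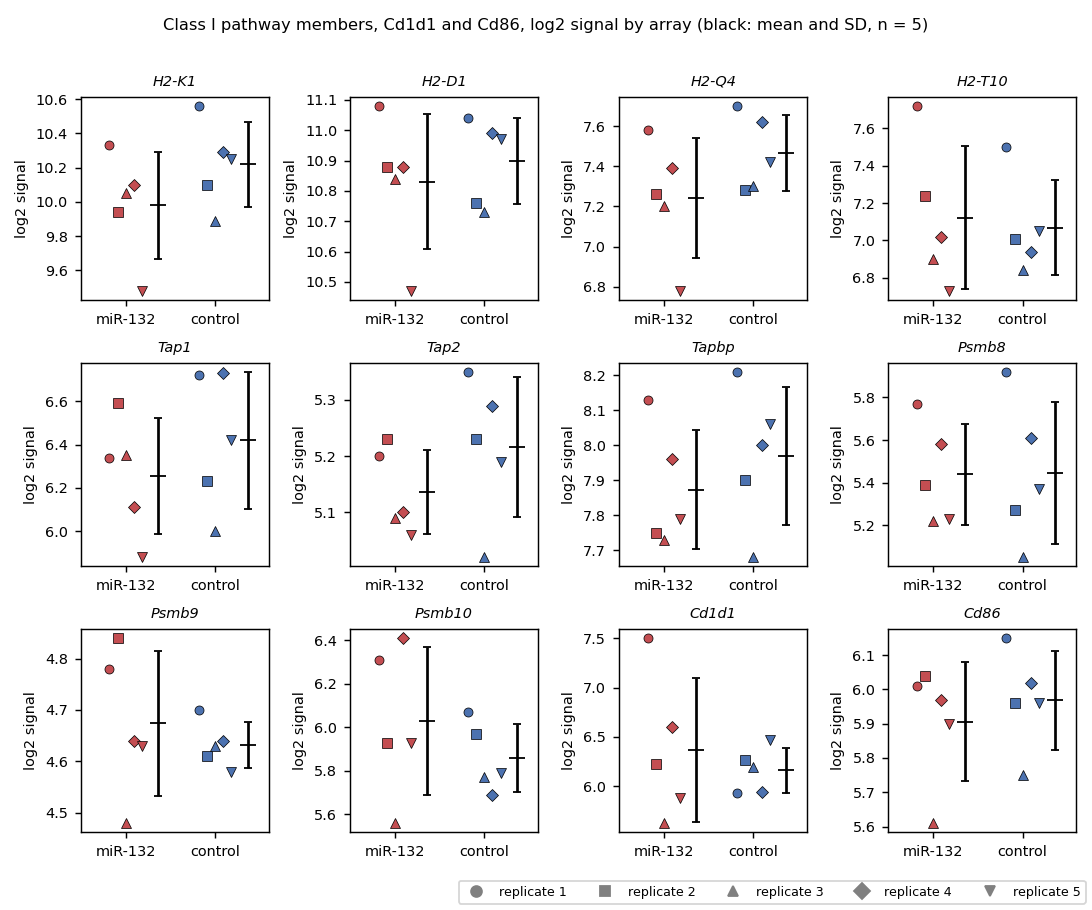
Log2 signal of 4 class I heavy chains, of the loading and immune proteasome genes, and of Cd1d1 and Cd86, 1 point per animal, with miR-132 left of control and black bars giving the mean and SD (n = 5). The groups overlap in every panel, and miR-132 replicate 5 is the lowest point for H2-K1, H2-D1, H2-Q4 and H2-T10.

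Class I and class II were then compared within each animal. The class I mean was taken over 22 genes, the heavy chains above the filter with B2m, the loading genes and the immune proteasome subunits, and the class II mean over 7 genes. The class I mean was 6.91, 6.70, 6.58, 6.70 and 6.53 on miR-132 replicates 1 to 5, against 6.90, 6.64, 6.58, 6.71 and 6.71 on control replicates 1 to 5. The groups covered nearly the same range, and the difference was -0.03 ± 0.09 (SE, n = 5 per group; 95% interval -0.22 to 0.17). The class II mean was 6.99, 6.98, 6.45, 6.81 and 6.83 with miR-132, against 7.70, 6.55, 6.62, 7.33 and 6.72 in controls. Control replicates 1 and 4 lay above every miR-132 animal and the other 3 control animals lay below 4 of the 5 miR-132 animals. The difference was -0.17 ± 0.25 (SE; 95% interval -0.74 to 0.40).

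The class II mean minus the class I mean, in which a shift of a whole array cancels, was 0.08, 0.28, -0.12, 0.11 and 0.30 with miR-132, against 0.80, -0.09, 0.03, 0.62 and 0.00 in controls. It averaged 0.13 ± 0.17 with miR-132 and 0.27 ± 0.41 in controls (SD, n = 5 each), a difference of -0.14 ± 0.20 (SE; 95% interval -0.60 to 0.31). The size of the shift in class II relative to class I was thus smaller than its error. With control replicates 1 and 4 both left out, a choice made after seeing the data, the class II difference was 0.19 and the difference of class II minus class I 0.15, so the direction turned. Without control replicate 1 alone they were 0.009 and -0.011. With the classical class II chains alone against the heavy chains alone, also chosen after seeing the data, the differences were -0.24 for class II and -0.03 for class I.

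**Figure D4:**
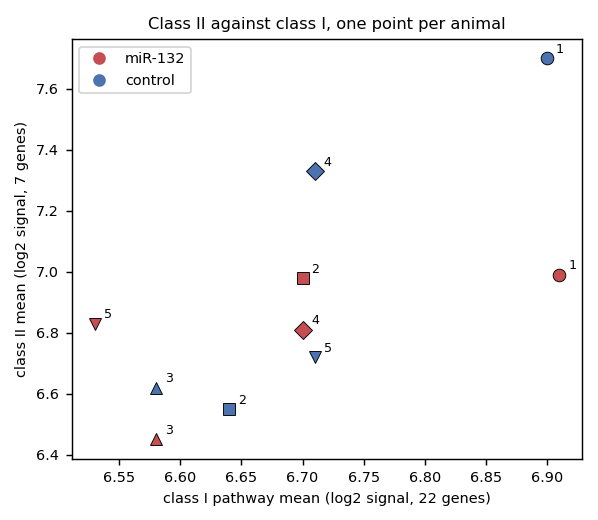
Mean log2 signal of the 7 class II genes (vertical) against that of the 22 class I pathway genes (horizontal), 1 point per animal labelled by replicate number, miR-132 in red and control in blue. Control replicates 1 and 4, at 7.70 and 7.33, stand above the other 8 animals on the vertical axis, while on the horizontal axis the groups lie over each other.

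**Figure D5:**
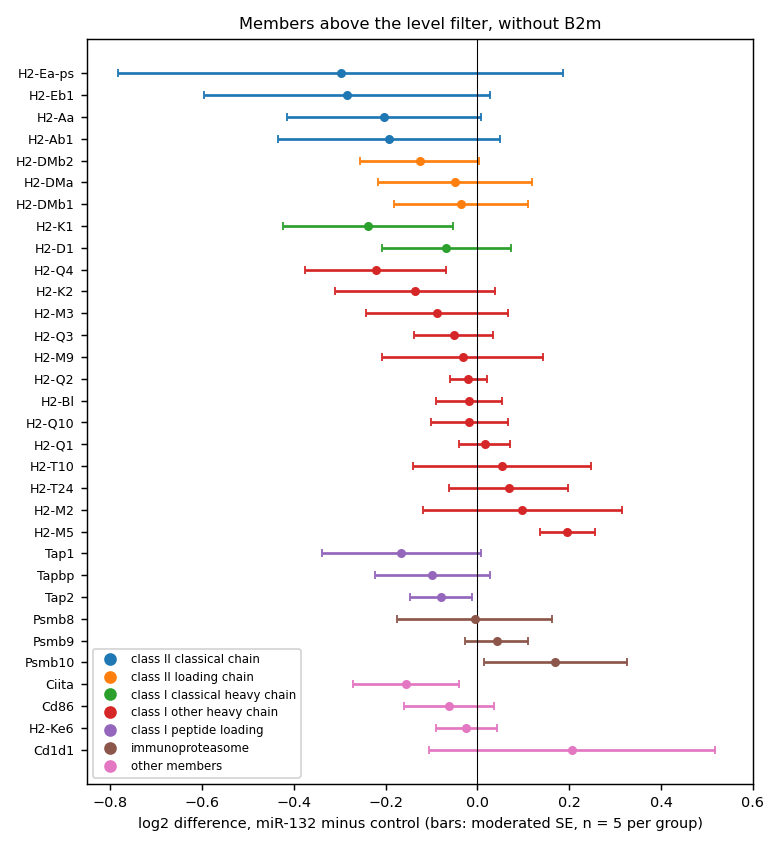
Log2 difference, miR-132 minus control, of the 32 members above the level filter other than B2m, ordered by role, with bars for the moderated SE (n = 5 per group). All 7 class II members lie left of zero, from -0.30 to -0.04 (after median centring H2-DMb1 turned to 0.010), and class I members lie on both sides.

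Cd1d1, which presents lipids to natural killer T cells, measured 7.50, 6.23, 5.63, 6.60 and 5.88 with miR-132, against 5.93, 6.27, 6.20, 5.94 and 6.47 in controls. A single animal, miR-132 replicate 1, stood above the rest, and the difference of 0.21 ± 0.31 (SE) turned to -0.077 without it. Cd86, a costimulatory ligand of antigen-presenting cells, measured 6.01, 6.04, 5.61, 5.97 and 5.90 with miR-132, against 6.15, 5.96, 5.75, 6.02 and 5.96 in controls, a difference of -0.06 ± 0.10 (SE). H2-Ke6, an enzyme gene named for its place in the locus, had a difference of -0.02 ± 0.07 (SE).

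Other genes of the pathway did not pass the test in any list, with 0 at an adjusted p under 0.05 by limma. For comparison with the counts in each list, 53.6% of all genes tested had a lower mean with miR-132. A limma unadjusted p under 0.05 was found for 8.08% of them. Of 12 genes for peptide supply and class I loading, 7 had a lower and 5 a higher mean with miR-132, 0 were at an unadjusted p under 0.05, and the median difference was -0.035. Psmb6, a constitutive proteasome subunit, had a difference of -0.33 ± 0.16 (SE), Canx, the chaperone calnexin, one of -0.22 ± 0.14 (SE), and Sec61a1, of the translocation channel, one of -0.20 ± 0.12 (SE). Of 14 genes for class II processing and traffic, 8 were lower, 5 higher and 1 equal, with a median of -0.103. Marchf1, a ubiquitin ligase that removes class II molecules from the surface, had a difference of 0.17 ± 0.07 (SE, limma unadjusted p = 0.0366), the 1 gene of this list under 0.05. Ap1s1, of the AP-1 sorting adaptor, had a difference of -0.18 ± 0.09 (SE) and Rab7, a late endosome GTPase, one of -0.25 ± 0.15 (SE).

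Of 17 genes for MHC transcription and interferon-gamma signalling, 12 were lower, 4 higher and 1 equal, with a median difference of -0.182. Over all genes tested 53.6% were lower, and 63.6% of those above the 75th percentile. In this list 2 genes were at a limma unadjusted p under 0.05, against 8.08% of all genes tested. The difference of the list mean was -0.122, and became -0.076 after median centring and -0.034 after quantile normalization. Socs1, an inhibitor of interferon signalling, had a difference of -0.19 ± 0.06 (SE, limma unadjusted p = 0.0114) at a mean level of 4.47. Nfyc, a subunit of the factor that binds the Y box, had a difference of -0.26 ± 0.11 (SE, limma unadjusted p = 0.0424), while Nfyb, another subunit of it, had one of 0.17 ± 0.09 (SE). Control replicates 1 and 4 both lay above the other 8 arrays for 3 of these 17 genes, Rfx5, Nfyc and Ifngr2, named after their values were seen, against 4.77% of all genes tested. Rfx5 encodes a subunit of the factor that binds the X box. It read 5.41 and 5.35 on those 2 control arrays, and 5.01 to 5.23 on the other 8. The remaining subunits of the X box and Y box factors, Rfxap, Rfxank, Nfya and Nfyb, did not share this order. Rfxap came close, with 6.52 and 6.70 on those 2 arrays, beside 6.21 to 6.52 on the other 8. Rfxank read 5.06 and 5.03 on those 2 arrays, within the 4.96 to 5.19 of the other 8. In the lists for peptide supply and for class II traffic the order was found in Psmb6 and in Ap1s1, 1 gene each.

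Of 7 genes for costimulation and inhibitory ligands, 4 were lower and 3 higher, with 0 at an unadjusted p under 0.05 and a median of -0.008. Cd274, the inhibitory ligand PD-L1, measured 6.72, 6.53, 7.78, 7.88 and 6.11 with miR-132, against 7.86, 7.42, 7.11, 9.22 and 7.52 in controls. Control replicate 4 was the highest array, and the difference was -0.82 ± 0.46 (SE), adjusted p = 0.669 by limma. It became -0.47 without that array. Icosl had a difference of -0.35 ± 0.19 (SE) and Cd83 one of 0.12 ± 0.13 (SE). Of 6 further relatives of MHC and CD1 genes, 1 was lower and 5 were higher, with a median of 0.174. Procr, the endothelial protein C receptor, had a difference of -0.52 ± 0.18 (SE, limma unadjusted p = 0.0174), Hfe, of iron regulation, one of 0.34 ± 0.19 (SE) and Mr1, which presents vitamin B metabolites, one of 0.23 ± 0.20 (SE).

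Levels of cell type markers were set beside the class II pattern, since class II genes belong to few cell types. The mean of 10 dendritic cell markers was 5.70 to 5.94 on miR-132 arrays, against 5.67 to 5.90 on control arrays, and read 5.87 and 5.67 on control replicates 1 and 4. It leaves out 5 of the 15 dendritic cell markers with a feature, Flt3, Zbtb46, Xcr1, Clec9a and Ccl22, which lay below the level filter. The mean of 5 Langerhans cell markers was 6.38 to 6.98 with miR-132, against 6.40 to 6.79 in controls, with 6.72 and 6.40 on those 2 arrays. The mean of 16 macrophage and monocyte markers was 10.25 to 11.09 with miR-132, against 10.17 to 10.91 in controls, with 10.91 and 10.73 on those 2 arrays. In these 3 lists control replicates 1 and 4 did not both lie above the other 8 arrays, and among their genes this held for Sirpa alone. Of the B cell markers with a feature, 7 of 8 lay below the level filter, and the remaining one, Ighm, read 6.60 and 5.61 on control replicates 1 and 4, within or below the range of the other 8, 6.07 to 8.64.

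Keratinocyte and neutrophil markers averaged lower with miR-132. Their list differences were larger in size than that of the class II mean, but no SE was computed, so the lists cannot be ranked. Of 9 keratinocyte markers 7 had a lower mean with miR-132, against 53.6% of all genes tested and 63.6% of those above the 75th percentile. Of the 9, 4 were at an unadjusted p under 0.05 by limma, all of them lower, against 8.08% of all genes tested in either direction. Krt1, Krt14 and Krt5, at or near the top value of 19.93 on most arrays, were not among the 4. The difference of the list mean was -0.374, with no SE computed. Of 13 neutrophil markers 12 had a lower mean with miR-132, against 53.6% of all genes tested and 63.6% of those above the 75th percentile. Of the 13, 0 were at a limma unadjusted p under 0.05. The difference of the list mean was -0.474, again with no SE. S100a8, S100a9 and Stfa1 read the top value on all control arrays. S100a8 and S100a9 were lower on miR-132 replicate 5 alone, and Stfa1 on miR-132 replicates 2 and 5. In none of the 5 remaining lists were control replicates 1 and 4 both above the other 8 arrays. Neutrophil markers averaged 10.03 on control replicate 1, near the low end, and 11.66 on control replicate 4, the highest of all arrays, beside 9.94 to 11.14 on the other 8. T and NK cell markers averaged 4.70 and 4.77 on control replicates 1 and 4, beside 4.55 to 5.07 on the other 8. Endothelial markers averaged 6.71 and 7.27 there, beside 6.28 to 7.30, fibroblast markers 13.89 and 13.67, beside 13.28 to 14.23, and keratinocyte markers 15.88 and 15.75, beside 15.32 to 16.05. The part of any of these in the class II values was not tested. The markers with the highest signal in each list were Sirpa, Dpp4 and Fscn1 for dendritic cells, Mfge8, Epcam and Ly75 for Langerhans cells, and Lyz2, Mrc1 and C1qb for macrophages. They were Thy1, Il2rb and Cd3g for T and NK cells, S100a9, S100a8 and Stfa1 for neutrophils, Cdh5, Pecam1 and Emcn for endothelium, Postn, Dcn and Col1a1 for fibroblasts, and Krt1, Krt14 and Krt5 for keratinocytes. The epidermal keratin Krt1 read the top value of 19.93 on all 10 arrays.

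The arrays themselves differed in ways that touch these values. The hybridisation spike-in controls averaged 10.57 to 10.98 on miR-132 arrays, against 10.43 to 10.61 on control arrays, and control replicates 1 and 4 had the lowest 2 values, 10.52 and 10.43. With these controls as a covariate the class II difference was 0.20 and the class I difference 0.13, and 8 of 33 members were lower with miR-132. The covariate and the treatment are partly confounded, and its part in the class II values was not tested. The span between the 10th and 90th percentile of log2 signal was 4.41 to 4.92 with miR-132, against 4.81 to 5.03 in controls, and the narrowest arrays were miR-132 replicates 2 and 5. After quantile normalization the class II difference was -0.09 and the class I difference 0.01.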

How the data were processed

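Wound-edge RNA of 10 animals, 5 per group, was measured on Affymetrix mouse Clariom D arrays. RMA in Affymetrix Expression Console 1.4 produced the deposited values, per the submitters' processing notes. These deposited values were read as log2 signal because they ran from 1.77 to 19.93, although no label names the scale. Precision is limited by how many arrays there are.

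Genes were named through the platform annotation, with symbols updated by gene identifier through RefSeq (GRCm38.p6, names only). Of 72688 features, 31221 named 1 gene and 1529 several, which were not used. The brightest feature per gene by mean over all arrays was kept, and genes with a mean above 4.17 were tested. The H2-D1 feature carries 2 gene identifiers. limma 3.58.1 in R 4.3.3 (lmFit, eBayes with intensity trend, no covariates) was fitted to all tested genes, two-sided, Benjamini-Hochberg adjusted, with 0.05 as the threshold, after being tested on simulated data. Class means are means of log2 values per array, with the SE from the spread between animals and no p. Correlations and sequences were handled in Python 3.11.15 with scipy 1.17.1. RefSeq promoters hold 250 bases before and 50 after the start.

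Named were all members above the level filter, the 3 genes of smallest unadjusted p in each further pathway list, and the 3 markers of highest signal per cell type. Members and lists were chosen with earlier results of these data known. Replicate numbers recur in both groups, so a fit with the number as a block was an alternative. The other alternatives were no level filter, a filter at the 75th percentile (5.66), quantile normalization, median centring, no intensity trend, robust eBayes, array weights, the spike-in controls as a covariate, miR-132 replicates 2 and 5 left out, the mean of all features of a gene, and each array left out. Cd74 and Nlrc5, on features shared with microRNA symbols, were not analysed here.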

Additional observations from a re-analysis of the deposited data

Results flagged for a closer look

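In 152 groups of 5 arrays (named genes and class means, each group apart), 19 held an array whose gap to its nearest neighbour exceeded 0.71 of the group's whole range, Dixon's limit for 5 values. Chance gives about 1 in 20. The ratio given below is that gap over the range.

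Among the members, H2-M2 was lowest on control replicate 4 (4.50, beside 5.15 to 5.22 on the other controls, ratio 0.903). H2-Bl stood highest on control replicate 1 (4.51, beside 4.21 to 4.26, ratio 0.833), as did H2-Q10 (5.37, beside 5.04 to 5.10, ratio 0.818). H2-Q1 was highest on miR-132 replicate 1 (4.76, beside 4.54 to 4.59, ratio 0.773). These 4 are heavy chain genes of low signal. No class II gene exceeded the limit in either group. The ratio uses the gap to the nearest neighbour, so high arrays that lie close together mask each other. H2-Aa, for example, read 6.20 and 6.05 on control replicates 1 and 4, beside 5.11 to 5.38 on the other controls. For class II genes the limit therefore cannot tell whether those arrays stood apart.

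Of the further pathway genes, Rab7 stood highest on control replicate 5 (14.72, ratio 0.85) and Nfyb lowest there (6.61, ratio 0.722). Icosl was highest on miR-132 replicate 3 (6.06, ratio 0.787) and Psmb6 lowest on miR-132 replicate 2 (6.18, ratio 0.726).

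Of the markers, Sirpa stood highest on miR-132 replicate 4 (9.75, ratio 0.719), Dcn on the same array (18.16, ratio 0.933) and Fscn1 on control replicate 2 (7.59, ratio 0.769). Krt5 was lowest on miR-132 replicate 5 (18.97, ratio 0.969), Col1a1 on control replicate 4 (17.09, ratio 0.975) and Lyz2 on control replicate 3 (19.73, ratio 0.714). S100a9 (19.53) and S100a8 (19.29) on miR-132 replicate 5, Krt14 (19.84) on miR-132 replicate 1, and Postn on miR-132 replicate 3 (19.45) and control replicate 2 (19.22) had a ratio of 1.0, because the other 4 arrays of the group shared 1 value.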

How the results depend on the processing

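No member passed adjustment under any alternative, and over all genes 0 passed except without miR-132 replicate 3, where 52 did (range 0 to 52 over arrays left out). Genes at an unadjusted p under 0.05 numbered 1425, with 989 lower and 436 higher; 2636 without the level filter, 933 above the 75th percentile, 746 without control replicates 1 and 4, and 949 to 2483 with 1 array left out. That split was 576 and 612 after quantile normalization and 619 and 679 after median centring. Members under it numbered 2 without the filter, 0 above the 75th percentile and 0 without miR-132 replicates 2 and 5. The class I difference moved to 0.13 with the spike-in covariate. With 1 array left out, it ranged from -0.084 to 0.02, the class II difference from -0.28 to 0.0089 and class II minus class I from -0.23 to -0.011.

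None of the 47 genes followed (32 members, 15 others) passed adjustment, and 19 kept their sign throughout. Signs turned in 89 of 1014 refits, and the cause was not tested. With control replicates 1 and 4 left out 18 turned: Cd86 0.016, Ciita 0.025, H2-Aa 0.14, H2-Ab1 0.16, H2-Bl 0.039, H2-D1 0.010, H2-DMa 0.17, H2-DMb1 0.16, H2-DMb2 0.055, H2-Ea-ps 0.44, H2-Eb1 0.16, H2-K2 0.014, H2-Ke6 0.0013, H2-M2 -0.025, H2-M3 0.040, H2-Q10 0.032, Psmb8 0.21 and Tap1 0.037. With the spike-in covariate 16 turned: Cd86 0.12, H2-Aa 0.13, H2-Ab1 0.11, H2-D1 0.14, H2-DMa 0.13, H2-DMb1 0.27, H2-Ea-ps 0.50, H2-Eb1 0.26, H2-Ke6 0.085, H2-M3 0.23, H2-M9 0.12, H2-Q4 0.044, Psmb8 0.26, Tap1 0.18, Tap2 0.040 and Tapbp 0.024. Median centring turned H2-Bl 0.028, H2-DMb1 0.010, H2-Ke6 0.022, H2-M9 0.014, H2-Q10 0.028, H2-Q2 0.026 and Psmb8 0.040, and quantile normalization Cd86 0.0014, H2-D1 0.11, H2-Q1 -0.023, H2-Q2 0.027, Psmb8 0.026 and Tapbp 0.0048. Without miR-132 replicates 2 and 5 H2-Bl was 0.050, H2-D1 0.035, H2-DMb1 0.0033, H2-K2 0.063, H2-Q10 0.057, H2-Q3 0.015 and Psmb8 0.079. Array weights turned H2-M9 0.013 and Psmb8 0.039.

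With 1 array left out, these ranges crossed zero: Cd1d1 -0.077 to 0.39, Cd86 -0.12 to 0.012, H2-Ab1 -0.34 to 0.021, H2-Bl -0.045 to 0.034, H2-D1 -0.13 to 0.022, H2-DMa -0.15 to 0.088, H2-DMb1 -0.12 to 0.052, H2-Ea-ps -0.56 to 0.036, H2-Ke6 -0.052 to 0.020, H2-M2 -0.074 to 0.19, H2-M3 -0.18 to 0.032, H2-M9 -0.15 to 0.10, H2-Q1 -0.020 to 0.044, H2-Q10 -0.062 to 0.042, H2-Q3 -0.10 to 0.010, H2-T10 -0.096 to 0.16, H2-T24 -0.011 to 0.16 and Psmb8 -0.10 to 0.11.

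Same-numbered arrays of the groups correlated at 0.165, 0.14, 0.043, 0 and -0.03 in their deviations over all genes tested. These correlations cannot tell whether the numbers pair the animals. With the number as a replicate block 0 genes passed adjustment and 1273 were at a limma unadjusted p under 0.05. The class II minus class I difference was then -0.14 ± 0.21 (SE). With this block the SE was 0.041 rather than 0.085 for the class I difference, and 0.206 rather than 0.246 for the class II difference. Low signals such as those of Ciita and H2-M5, near the level filter, and B2m, near the top value, limit what the arrays can show.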
